A study of Mus musculus with 2 samples.

Results

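Phosphatases are the enzymes that remove phosphate groups, and the set described here is every probe on a mouse array whose deposited gene name holds that word, leaving out names with kinase or alkaline. The rule found 58 probes of 3757, chosen by name and not by signal. They were read in primary murine osteoblasts, cells that form bone, starved of serum in alphaMEM holding 0.2% FBS. The treated culture received TGF-beta1, a cytokine that bone matrix stores, at 2 ng/ml for 24 h, and the other was left untreated. Each group was 1 sample on 1 array with Cy3, so there is no replicate error, no test and no p-value for any difference below. The labels give no strain, age, sex or number of animals for the cells.

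Protein phosphatases oppose kinases by taking phosphate off tyrosine, serine or threonine. In the TGF-beta pathway, receptor-activated Smads are switched on by phosphorylation and switched off in part by phosphatases, and dual specificity phosphatases turn off MAP kinases, a second branch of the same signal. Other phosphatases act on lipids, sugars, nucleotides or pyrophosphate. In bone, acid phosphatase 5 marks osteoclasts and Enpp1 makes the pyrophosphate that holds back mineral growth.

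The summed normalized intensity was 431093 on the TGF-beta1 array and 427889 on the untreated array. A signal was taken as detected above 87.4, the brightest of 8 lambda phage control spots, and 866 probes passed this on the TGF-beta1 array and 924 on the untreated array. Of 8 osteoblast markers on the array, 6 were detected on at least 1 array, and the summed signal of the 8 was 2949 with TGF-beta1 and 3529 without. The probe of osteocalcin, Bglap, had 840.5 with TGF-beta1 and 846 without. Sparc had 631 with TGF-beta1 and 946 without, a log2 ratio of -0.58. Relative to the median of its array block the ratio of Sparc was 0.14. That adjustment put the median of all 795 probes above the threshold on both arrays at 0.15, so Sparc then lay close to that median. Ibsp passed the threshold on the untreated array alone, at least 2.74-fold lower. Cdh11 did the same, with a bound of 1.62-fold lower. None of 5 leukocyte and macrophage markers was detected on either array, and their summed signal was 156 with TGF-beta1 and 179 without. Of 5 osteoclast markers, Ctsk was detected on the untreated array and Clcn7 on both, and the other markers on neither. The summed signal of the 5 was 315 with TGF-beta1 and 599 without. Most of that gap came from Clcn7 alone, with 116 with TGF-beta1 and 370 without. Fewer cells of a type and less RNA per cell cannot be told apart in such bulk samples.

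The phosphatases were detected, and differed between the cultures, about as often as the probes of the array in general. Of the 58 probes, 15 (25.9%) exceeded the threshold on at least 1 array, against 26.5% of all probes on the array. On both arrays 11 exceeded it, on the untreated array alone 3, on the TGF-beta1 array alone 1, and 43 on neither. Of the 11, none was at least 2-fold higher with TGF-beta1, where 1.51% of the 795 probes above the threshold on both arrays were, and 1 was at least 2-fold lower, where 2.26% were. Of the 11, 9 lay within 1.5-fold, as did 84.7% of the 795. The log2 ratio of TGF-beta1 over untreated intensity was above 0 for 6 of the 11, as for 53.2% of the 795, and below 0 for 5, as for 46.8% of the 795. Their median log2 ratio was 0.14 and the median of all 795 was 0.03. The middle 50% of the 795 lay between -0.24 and 0.27, so both medians sat inside it. The median of the 11 rested on few probes: over the 15 detected on at least 1 array it was -0.10.

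**Figure D1:**
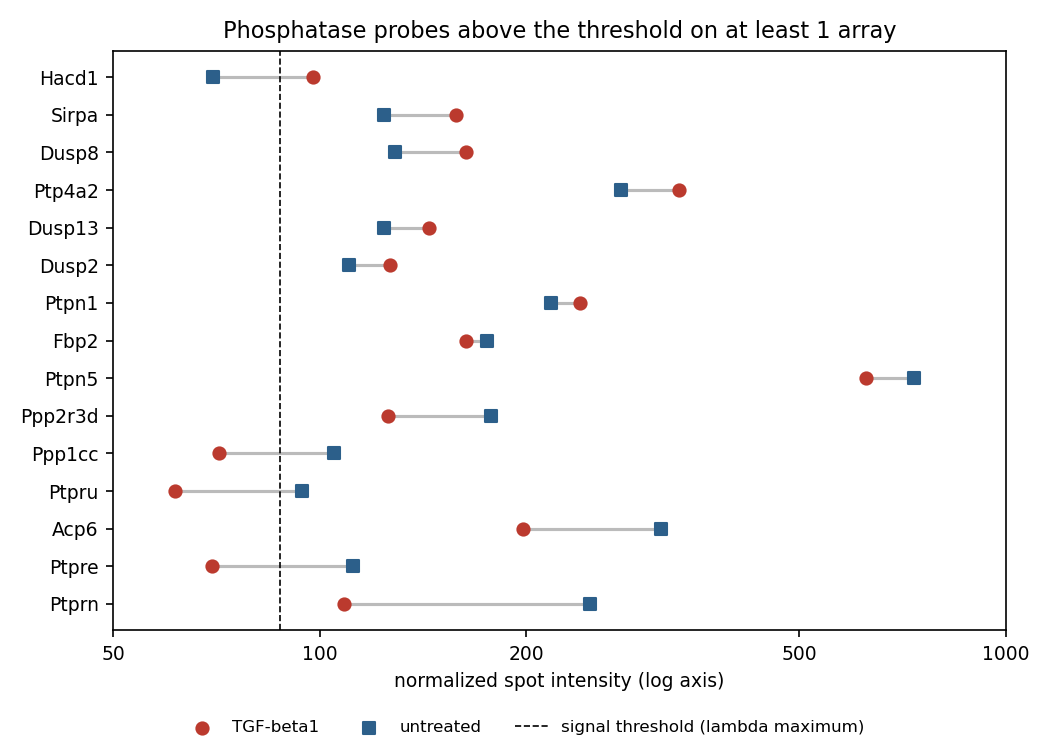
Normalized spot intensity (log axis) of the 15 phosphatase probes above the threshold on at least 1 array, with 1 red dot for the TGF-beta1 array and 1 blue square for the untreated array, ordered by ratio. Ptprn, at the bottom, has the widest gap, with 108 on the TGF-beta1 array and 248 on the untreated array, and the dashed line is the threshold of 87.4.

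Dual specificity phosphatases, which take phosphate off both tyrosine and threonine of their targets, had slightly higher signals with TGF-beta1 in the deposited intensities where they were detected. Dusp8, a phosphatase of the stress-activated MAP kinases that the file lists as neuronal tyrosine/threonine phosphatase 1, had a signal of 164 on the TGF-beta1 array and 129 on the untreated array, 1.27-fold higher. Dusp13, known from testis and skeletal muscle, had 144 with TGF-beta1 and 124 without, a log2 ratio of 0.22. Dusp2, an inducible nuclear phosphatase of MAP kinases, had 126 with TGF-beta1 and 110.3 without, a log2 ratio of 0.20. All 3 detected members thus had a higher signal as deposited, each by less than 1.5-fold, where 53.2% of the 795 probes did. With the median of its block, or of its neighbours, taken off, and relative to the median of the 795 probes under the same adjustment, Dusp2 stood at -0.11 and -0.029, Dusp13 at 0.036 and -0.0036, and Dusp8 at 0.26 and 0.56. With the block median taken over detected probes, Dusp2 was at -0.025. The log2 ratios of the 8 lambda control spots, from the authors' deposited table, had an SD of 0.20, so Dusp2 and Dusp13 lay near that rough scale. Dusp1, the early-response phosphatase listed under its older name non-receptor type 16, was not detected, with 40.8 on the TGF-beta1 array and 42.0 on the untreated array. Dusp14, which acts on MAP kinases, was not detected either, at 31.8 with TGF-beta1 and 28.0 without. Of their substrates, 6 of 10 MAP kinases were on the array and 2 were detected, both with higher deposited signals. Mapk7 had 287 with TGF-beta1 and 179 without, 1.61-fold higher, and Mapk12 had 135 with TGF-beta1 and 129 without.

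Intracellular tyrosine phosphatases differed by less than 1.5-fold in the deposited intensities wherever they were detected on both arrays. Ptp4a2, a small membrane-anchored phosphatase of the PRL family, had 334 on the TGF-beta1 array and 274 on the untreated array, 1.22-fold higher. Its log2 ratio was 0.28 as deposited, 0.62 relative to its block and 0.50 relative to its neighbours. Ptpn1, the endoplasmic reticulum phosphatase that acts on the insulin receptor, had 239 with TGF-beta1 and 217 without, 1.10-fold higher. Its log2 ratio was 0.14 as deposited, 0.48 relative to its block and 0.39 relative to its neighbours. Ptpn5, best known as a striatum-enriched phosphatase of neurons, had 627 with TGF-beta1 and 734 without, a log2 ratio of -0.23 that turned to 0.11 relative to its block and to 0.20 relative to its neighbours. These 2 adjustments also lifted the median of the 795 probes, from 0.03 as deposited to 0.15 and 0.17. Relative to that median Ptpn5 stood at -0.037 and 0.026, Ptp4a2 at 0.47 and 0.33, and Ptpn1 at 0.33 and 0.22. As deposited, the detected group held 2 higher and 1 lower signal. The other 9 of the 12 probes in this class were under the threshold on both arrays. Among them, the PRL member Ptp4a1 had 69.2 with TGF-beta1 and 62.1 without, and Ptpn12, which acts on focal adhesion proteins, had 48.0 with TGF-beta1 and 61.3 without. Ptpn6, the blood-cell phosphatase that the file calls hemopoietic cell phosphatase, had 7.09 with TGF-beta1 and 24.6 without. For single probes under the threshold on both arrays the signals are given as values, with no direction read from them. Some counts of direction further below do include such dim spots.

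Receptor type tyrosine phosphatases span the membrane and carry their catalytic domains inside the cell. Of the 10 probes given this class by symbol, 1 was above the threshold on both arrays, 2 on the untreated array alone and 7 on neither. All 10 read lower on the TGF-beta1 array, as did 61.8% of all probes, but for the 7 undetected ones this is a reading of dim spots. Ptprn, a catalytically inactive member that sits in the membrane of neuroendocrine secretory granules, had 108 on the TGF-beta1 array and 248 on the untreated array. This was 2.28-fold lower, a log2 ratio of -1.19, and it was the 1 member past 2-fold among the 11 above the threshold on both arrays. Of the 3 other neuronal markers on the array, Snap25, Syp and Map2, none was detected. Snap25 had 37.6 with TGF-beta1 and 32.4 without, Syp 24.7 with and 77.7 without, and Map2 31.5 with and 35.6 without. The summed signal of these 4 markers, Ptprn included, was 202 with TGF-beta1 and 393 without. Most of each sum was Ptprn itself, so the sums say little about the other markers. Ptpre, whose cytosolic form acts in osteoclasts, passed the threshold on the untreated array alone, with 69.6 on the TGF-beta1 array and 112 on the untreated array, at least 1.27-fold lower. Ptpru, listed as receptor type L and tied to cell contacts, had 61.6 with TGF-beta1 and 94.1 without, at least 1.07-fold lower. These bounds set the dim signal at the lowest detected value of its array. The log2 ratio of Ptpru was -0.61 as deposited and 0.03 relative to its neighbours. It was -0.16 with phosphatases left out of the neighbours, -0.21 relative to its block, and -0.52 with the block median taken over detected probes. The neighbour adjustment put the median of the 795 probes above the threshold on both arrays at 0.17. Relative to that median Ptpru stood at -0.15. The 7 undetected probes include Ptprc, the leukocyte antigen CD45, with 28.1 on the TGF-beta1 array and 43.4 on the untreated array, and Ptprz1, a receptor of the growth factor pleiotrophin, with 30.5 on the TGF-beta1 array and 46.7 on the untreated array. Across the 10 probes the log2 ratio ran from -1.19 to -0.16 with a median of -0.64.

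**Figure D2:**
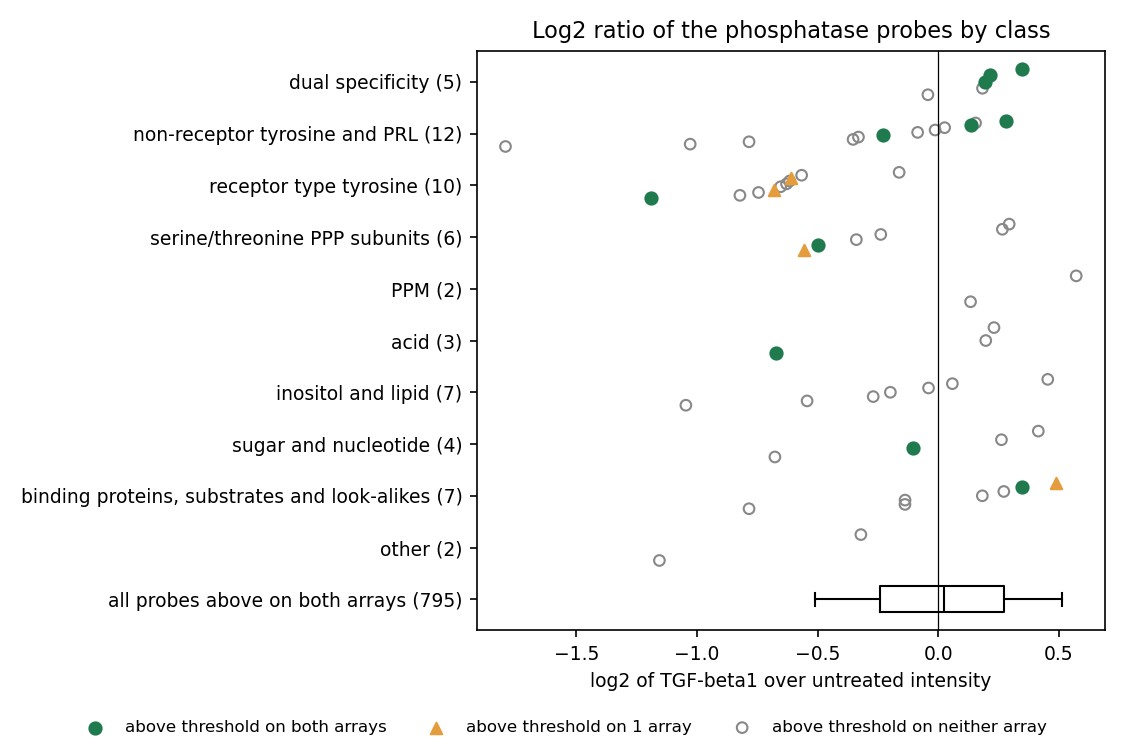
Log2 of TGF-beta1 over untreated intensity for all 58 phosphatase probes by class (number of probes in parentheses), filled green above the threshold on both arrays, orange triangles on 1 array and open on neither. The box shows the median, the middle 50% and the 10th to 90th percentile of the 795 probes above the threshold on both arrays. All 10 receptor type probes lie left of 0.

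The 10 probes classed as receptor type by symbol also lay side by side, in 2 of the array's 48 blocks. Their neighbours had lower signals too. In block B2 the receptor type probes filled 4 spots of row h, and in block C1 they filled 6 spots of row b. Of all 79 probes in block B2, 66 (83.5%) had a lower signal on the TGF-beta1 array, and the same count, 66 of 79, held in block C1, against 61.8% of all probes. Among probes that were no phosphatases the median log2 ratio was -0.35 in block B2 and -0.35 in block C1. With the median of neighbouring spots (within 2 rows and 2 columns) taken off, 6 of the 10 receptor type probes stayed below 0 and their median log2 ratio was -0.04. With phosphatases left out of the neighbours, 8 of 10 stayed below 0 and the median was -0.15. Taking off the block median left 9 of 10 below 0 with a median of -0.24. Ptpre had a log2 ratio of -0.68 in the deposited intensities and of -0.04 relative to its neighbours. For Ptprc the corresponding values were -0.63 and 0.02. The neighbour adjustment put the median of the 795 probes at 0.17, and relative to that median Ptpre stood at -0.22. Relative to the block median Ptpre was at -0.28 and Ptprc at -0.23. With the block median taken over detected probes they were at -0.59 and -0.54. The median of block C1, which holds both, was -0.40 over all its probes and -0.09 over its detected probes.

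**Figure D3:**
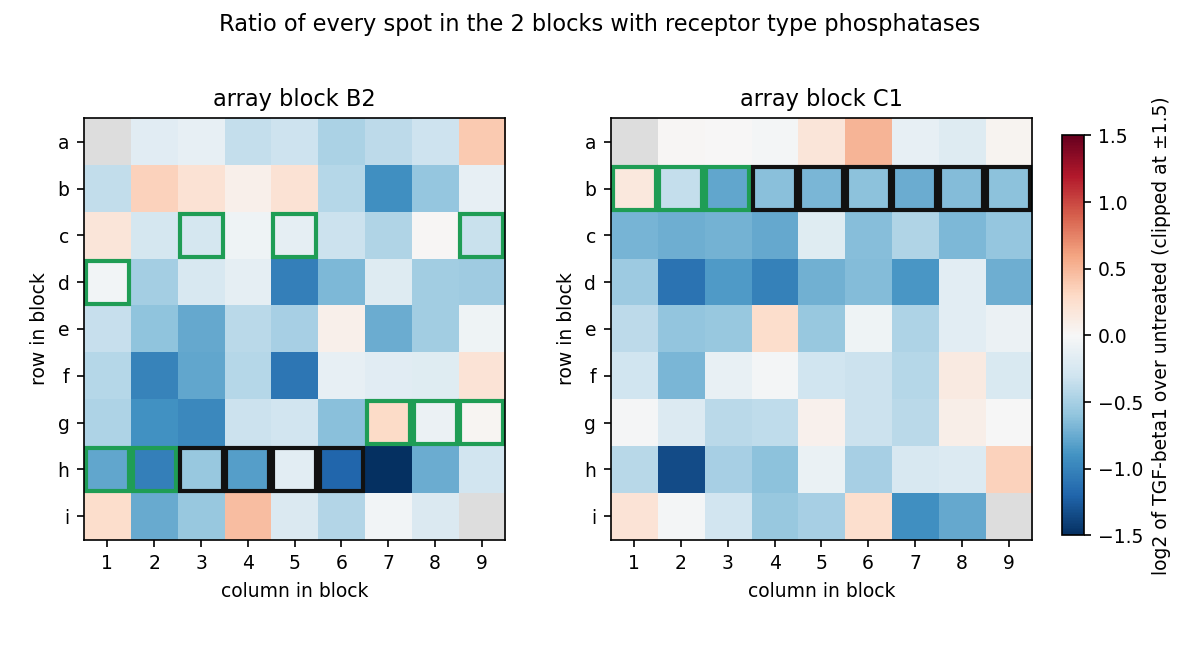
Log2 of TGF-beta1 over untreated intensity of every spot in array blocks B2 and C1, by row (a to i) and column (1 to 9), in blue where the TGF-beta1 array was dimmer and red where it was brighter, grey where no probe was used. Black frames mark the receptor type phosphatases and green frames the other phosphatase probes. The frames sit among spots that are mostly blue.

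Ptprn kept a large part of its difference under these adjustments. The log2 ratio, -1.19 as deposited, was -0.85 relative to the block median, -0.97 relative to the neighbours' median, -0.91 with phosphatases left out of the neighbours and -0.89 with the block median taken over detected probes. All 4 values were short of 2-fold. Relative to the median of the 795 probes under the same adjustment, Ptprn stood at -1.004, -1.14, -1.08 and -0.90 in the same order. The last of these was short of 2-fold. The value for the deposited intensities was -1.22. Ptprn was the lowest of the 11 probes under each of these 4 adjustments and rests on 1 spot per array.

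**Figure D4:**
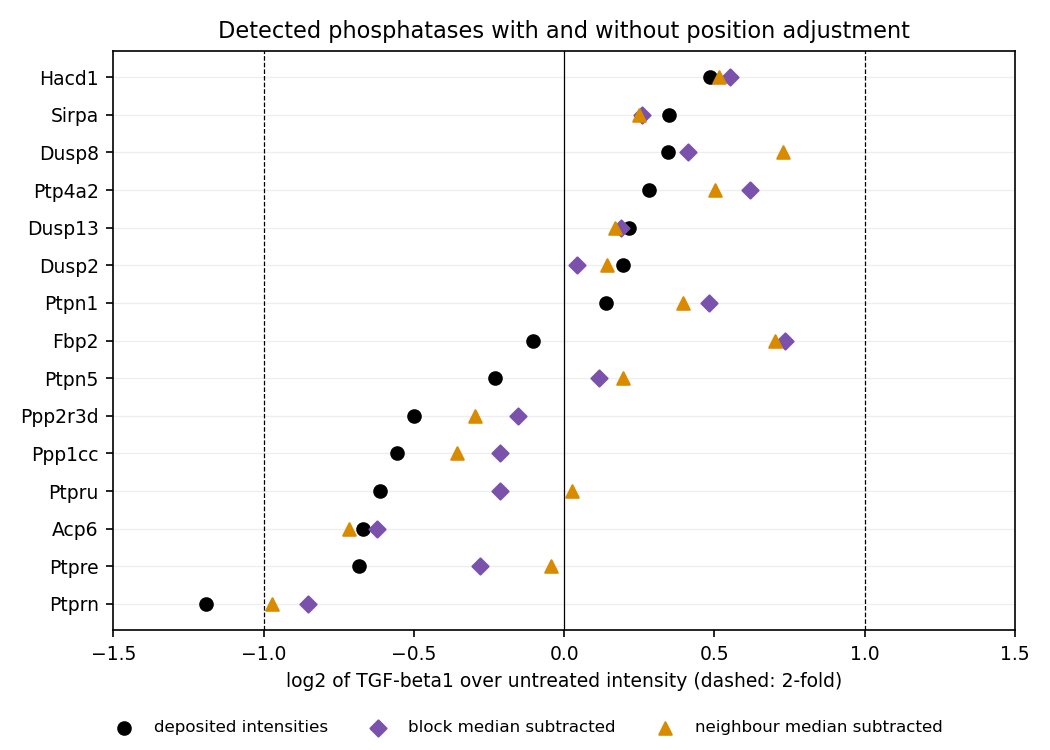
Log2 of TGF-beta1 over untreated intensity of the 15 detected phosphatases as deposited (black), relative to the block median (purple diamonds) and relative to the neighbours' median (orange triangles), with dashed lines at 2-fold. Fbp2 and Ptpn5 cross 0 under both adjustments, and no probe passes 2-fold after either.

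Acid phosphatases were represented by 3 probes, of which 1 was detected. Acp6, a mitochondrial enzyme that splits lysophosphatidic acid, had 197 on the TGF-beta1 array and 314 on the untreated array, 1.59-fold lower. The log2 ratio was -0.67 as deposited, -0.62 relative to the block median and -0.71 relative to the neighbours, and -0.44 with the block median taken over detected probes. At a 1.5-fold size rule Acp6 and Ptprn were the 2 lower phosphatases of the 11, where 8.18% of the 795 probes were lower, and none of the 11 was higher, where 7.17% were. Acp5, the tartrate-resistant enzyme of osteoclasts, was not detected, with 38.6 on the TGF-beta1 array and 32.9 on the untreated array. Prostatic acid phosphatase, Acpp, had 33.8 with TGF-beta1 and 29.5 without.

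The promoters of Acp6 and Ptprn are shown because these were the 2 members beyond 1.5-fold among the 11 above the threshold on both arrays. The 250 bases before the transcription start come from RefSeq sequence of build GRCm38.p6. Capitals mark CAGAC or its reverse complement GTCTG, the core that Smad proteins bind, searched on both strands, which Acp6 held at 2 places and Ptprn at 0. Acp6, chr3:97158527-97158776, plus strand, and Ptprn, chr1:75264209-75264458, minus strand, the first of 2 listed starts, read 5′ to 3′ as follows.
Acp6: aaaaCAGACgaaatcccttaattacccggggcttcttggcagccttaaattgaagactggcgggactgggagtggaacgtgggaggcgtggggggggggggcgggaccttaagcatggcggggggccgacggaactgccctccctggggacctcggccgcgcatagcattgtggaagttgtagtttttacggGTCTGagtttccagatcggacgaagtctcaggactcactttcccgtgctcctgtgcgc
Ptprn: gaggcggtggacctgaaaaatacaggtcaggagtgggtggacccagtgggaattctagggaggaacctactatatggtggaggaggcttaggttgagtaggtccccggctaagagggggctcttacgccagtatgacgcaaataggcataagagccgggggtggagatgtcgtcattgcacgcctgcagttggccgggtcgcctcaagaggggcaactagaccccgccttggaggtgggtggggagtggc
Such a motif was common: 42.2% of 32851 windows of the same length in the table held it, as did 41.2% of 68 windows that belong to 48 of the phosphatase genes. The arrays measured RNA and not binding, so the letters are a description only.

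Of 6 subunits of the large serine/threonine phosphatases, 2 were detected on at least 1 array, and both had lower signals. Of the 795 probes above the threshold on both arrays, 46.8% had a lower signal. Ppp2r3d, a regulatory subunit of protein phosphatase 2A that the file lists as the B'' subunit, had 126 on the TGF-beta1 array and 177 on the untreated array, 1.41-fold lower. The log2 ratio was -0.50 as deposited, -0.15 relative to the median of its block, L1, and -0.30 relative to its neighbours. Ppp1cc, a catalytic subunit of protein phosphatase 1, passed the threshold on the untreated array alone, with 71.4 on the TGF-beta1 array and 105 on the untreated array, at least 1.20-fold lower. Ppp1cc lay in the same block, where 84.8% of probes had a lower signal. Its log2 ratio was -0.56 as deposited, -0.21 relative to the block, -0.36 relative to its neighbours and -0.31 with the block median taken over detected probes. Block and neighbour adjustment also lifted the median of the 795 probes. Relative to that median Ppp2r3d stood at -0.31 and -0.47, and Ppp1cc at -0.36 and -0.53. Ppp2r1a, the scaffold of protein phosphatase 2A, was close under the threshold with 78.2 on the TGF-beta1 array and 63.7 on the untreated array. The calcineurin subunit Ppp3cc, the catalytic subunit Ppp4c and Ppp1r17, which the file names as an inhibitor of protein phosphatase 1, were not detected. Neither magnesium-dependent phosphatase was detected: Ppm1d, which dampens the p53 response, had 46.2 on the TGF-beta1 array and 31.1 on the untreated array, and Ppm1g had 46.3 on the TGF-beta1 array and 42.2 on the untreated array. No phosphatase probe was matched to Ppm1a, Ppp1r15a, Dusp6, Ptpn11 or Ppp3ca, so these are not analysed here.

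Partners of these phosphatases were taken from lists of known binding proteins, regulators and targets. Of 16 calcineurin partners and targets, 4 were on the array and all 4 were detected on at least 1 array. The immunophilin Fkbp1a, through which the drug FK506 blocks calcineurin, had 392 on the TGF-beta1 array and 268 on the untreated array, 1.47-fold higher. Calm3, a calmodulin gene, was 1.32-fold higher, the cyclophilin Ppia had a log2 ratio of -0.33, and Calm2 was detected on the untreated array only, at least 1.18-fold lower. The probes of calmodulin genes were not separated from each other's transcripts. Of 17 regulators and partners of protein phosphatases 1 and 2A, 5 were on the array. Akap1, a mitochondrial anchor that binds protein phosphatase 1, had 132 with TGF-beta1 and 93.8 without, 1.40-fold higher, and striatin, Strn, was detected on the untreated array only, at least 1.09-fold lower. None of these partners passed 2-fold in the deposited intensities. The log2 ratio of Fkbp1a was 0.90 relative to its block and 1.05 relative to its neighbours, the latter past 2-fold. These adjustments put the median of the 795 probes above the threshold on both arrays at 0.15 and 0.17. In the same order Akap1 was at 0.34 and 0.35, Calm3 at 0.32 and 0.32, and Ppia at 0.01 and 0.07.

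Phosphatases of lipids, sugars and nucleotides were mostly dark on both arrays. All 7 inositol and lipid phosphatases were under the threshold, with Inpp5b at 71.8 on the TGF-beta1 array and 52.4 on the untreated array and Inpp5k, listed as a putative phosphatase, at 65.9 on the TGF-beta1 array and 67.7 on the untreated array. Inpp5d, the inositol phosphatase of blood cells, had 14.3 with TGF-beta1 and 29.5 without. Fbp2, the muscle form of fructose bisphosphatase, was the 1 detected enzyme of sugar metabolism, with 163 on the TGF-beta1 array and 176 on the untreated array. The log2 ratio was -0.10 as deposited and 0.73 relative to its block, C4, whose median of -0.84 was the lowest of all 48, so the direction of Fbp2 turned with the adjustment. The skeletal muscle markers Myod1, Tnnc2 and Casq1 were also detected on both arrays, and the summed signal of 5 muscle markers was 1490.0 with TGF-beta1 and 1799 without; their part in the Fbp2 signal was not tested. Enpp1 had 19.6 with TGF-beta1 and 14.7 without, and Enpp2, the enzyme that makes lysophosphatidic acid, had 35.6 with TGF-beta1 and 29.6 without, so neither was detected. Of 6 genes of mineral phosphate metabolism on the array, Alpl, the alkaline phosphatase outside the naming rule, was the 1 detected on both arrays, at 1.31-fold higher with TGF-beta1. The pyrophosphate transporter Ank was detected with TGF-beta1 only, at least 1.01-fold higher. The bone sialoprotein gene Ibsp went the other way, with 47.9 on the TGF-beta1 array and 239.9 on the untreated array, at least 2.74-fold lower.

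The naming rule also took 7 probes whose products are not phosphatases but substrates, binding partners, a transporter or look-alikes. Sirpa, the membrane receptor for CD47 that recruits tyrosine phosphatases, had 158 on the TGF-beta1 array and 124 on the untreated array, 1.27-fold higher. A further probe that the file names protein tyrosine phosphatase, non-receptor type substrate 1 (Ptpns1) had 22.8 on the TGF-beta1 array and 39.3 on the untreated array. It was not detected, and its accession had no symbol in the table used. Hacd1, a fatty acid elongation enzyme once named for its likeness to tyrosine phosphatases, was above the threshold with TGF-beta1 only, with 97.8 on the TGF-beta1 array and 69.8 on the untreated array, at least 1.12-fold higher. Ppfibp2, Pstpip2, Slc37a4 and Nipsnap1 were not detected. A probe the file names embryonic stem cell phosphatase had 28.8 on the TGF-beta1 array and 64.2 on the untreated array. It lay in block C4, under the threshold on both arrays, and had no symbol in the table used. Whether it belongs with the receptor type class was therefore not settled here. The capping enzyme Rngtt was under the threshold as well.

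Place on the array split the whole set. Of the 22 phosphatase probes in blocks B2 and C1, 19 had a lower signal on the TGF-beta1 array, with a median log2 ratio of -0.59. In each of these blocks 83.5% of all probes had a lower signal. Of the 36 elsewhere, 19 had a higher signal and 17 a lower one, and their median was 0.10. Over the whole array 61.8% of probes had a lower signal. Of the 11 phosphatases above the threshold on both arrays, 9 lay elsewhere, so the counts in B2 and C1 come mostly from dim spots. Over all 58 the median was -0.15, and over all probes on the array it was -0.10. Relative to their neighbours, 37 of the 58 were above 0 and 21 below, against 49.5% above 0 over all probes. With phosphatases left out of the neighbours 35 were above and 23 below, and relative to block medians 33 were above and 24 below. All these counts include dim spots. Of the 58, 43 were under the threshold on both arrays, with signals between 7.09 and 78.2 on the TGF-beta1 array and between 14.7 and 67.7 on the untreated array.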

How the data were processed

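RNA was extracted with TRIZOL and cDNA carried Cy3 from a BD Atlas labelling kit, per the labels' protocols. The deposited intensities were linear and normalized by a method named global, per the file headers, in a workbook made by the Atlas Iris software for an Atlas Glass Mouse 3.8 array. Background had been subtracted as far as 3 values below 0 show; how it was estimated, and with which scanner, is not given in the sources used here. The authors' deposited ratio was TGF-beta1 over untreated, and 3754 of 3757 matched the quotient of the intensities within 0.0001; 3 had none. In the workbook, 16 columns of per-sample values in 8 sheets matched no sample label and were not used.

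Each of the 3757 probes had 1 spot, and 17 control spots were left out. Probe identifiers were joined to gene names through the deposited ratio list, whose 3774 rows equalled those of the workbook. Symbols came from unversioned accessions in a RefSeq table of GRCm38.p6, which matched 3597 probes and 56 of the 58 phosphatases. Main values were log2 of the quotient of the deposited intensities with nothing added. Classes followed the file's gene names and the symbols. Named were every phosphatase detected on at least 1 array, the 5 undetected ones with the highest mean signal, and a short list whatever its values; others named were chosen after their values were seen. Members, lists and alternatives were chosen with earlier results of these data known. Python 3.11.15, pandas 2.3.3 and statsmodels 0.14.6 (loess, span 0.4) were used, and the calls and position adjustments were run on simulated data. The simulation shifted dim and bright spots of a block by the same factor. In the real data the median of a block could differ between all its probes and its detected probes. The simulation therefore cannot show how well the position adjustments serve here. Precision is limited by the number of arrays, 1 for each group.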

Additional observations from a re-analysis of the deposited data

How the results depend on the processing

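No paired analysis was possible because each group was 1 sample and no test was run. The direction counts of 6 higher and 5 lower and the counts of 0 and 1 past 2-fold kept their values under loess, quantile normalization and scaling to total signal or to the detected probes' median. The median log2 ratio of the 11 lay between 0.13 and 0.20 under these 4. With an offset of 103.6 (the 10th percentile of detected signals) added to every signal, 0 phosphatases were 2-fold lower, as fitted values shrink toward 0. Relative to block medians, to neighbour medians and to block medians over detected probes (the last chosen after seeing the data), 0 were 2-fold lower; the counts below 0 became 3, 3 and 4. The first and the second of these lifted the median of all 795 probes to 0.15 and 0.17, and relative to that median 6 phosphatases were above and 5 below under both, as in the deposited intensities. At 1.5-fold 2 were lower. With the threshold at 2 times the lambda maximum, 4 phosphatases were detected, 2 higher and 2 lower, 0 past 2-fold lower, and the median was -0.046. The median was also -0.10 over members detected on at least 1 array and -0.15 over all 58. These last changes follow from which probes enter. Between 0 and 3 of the 15 detected members changed sign under any alternative: Fbp2 and Ptpn5 under each position adjustment, Ptpru relative to its neighbours and Dusp2 with the block median over detected probes. These signs were read from the adjusted ratios, not from values relative to the median of the 795 probes. The dim signals limit what can be said: 43 of the 58 were under the brightest control spot on both arrays.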
